A study of Mus musculus with 2 samples.

Results

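The collagen hydroxylases and lysyl oxidases are the enzymes that modify collagen inside the cell and cross-link it outside, and 10 of their genes were examined here: Plod1, Plod2, Plod3, P4ha1, P4ha2, P4ha3, Lox, Loxl1, Loxl2 and Loxl3. Members were taken by gene symbol from the array annotation, keeping transcript clusters (the array's unit of measurement, a set of probes for 1 transcript region) that listed 1 symbol only. This found 8 of the 10 among 30142 named genes, each with 1 cluster. Plod3 and Loxl2 had no cluster of their own: the cluster listing Plod3 also listed Mir702, and the cluster listing Loxl2 also listed Mir6950 and Gm21451.

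RNA came from adipose-derived stromal cells, fibroblast-like progenitors grown out of inguinal fat. The mice were 6 to 10 weeks old and of the C57BL/6J background, and the cells grew in DMEM medium with 15% fetal bovine serum. The wild-type group and the Wisp1 knockout group held 1 array each, and the labels do not say how many animals or cultures stood behind an array. The knockout was global and came from mice whose Wisp1 exons 1 to 5 were floxed and which were mated with mice labelled Cre-neo; no promoter of that Cre is named in the labels. The study's title concerns Wisp and cartilage differentiation in heterotopic ossification, the formation of bone in soft tissue. Wisp1, now named Ccn4, a secreted matricellular protein, was at 7.79 in wild type and at 5.40 in the knockout; the position of its probes relative to the deletion is not known here. All values are the authors' log2 expression values, and every difference is knockout minus wild type on that scale. With 1 array a group there is no replicate spread and no test, so the differences compare these arrays and not the genotypes.

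Collagen chains are modified in the endoplasmic reticulum before they fold. Prolyl 4-hydroxylases, tetramers of an alpha subunit (P4ha1, P4ha2 or P4ha3) and the beta subunit P4hb, make the hydroxyproline that keeps the triple helix stable at body temperature. Lysyl hydroxylases (Plod1, Plod2, Plod3) make the hydroxylysine that carries sugars and takes part in cross-links. Both kinds of hydroxylase use iron, oxygen, 2-oxoglutarate and ascorbate. Lysyl oxidases, copper enzymes of the extracellular space, then turn lysine and hydroxylysine side chains into the aldehydes from which collagen and elastin cross-links form.

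The hydroxylases were higher in the knockout array and the lysyl oxidases were nearly level between the arrays. All 5 measured hydroxylase genes differed by between 0.28 and 0.69, with a median of 0.34. The 3 measured lysyl oxidase genes differed by between 0.01 and 0.08, with a median of 0.05. The lowest hydroxylase difference therefore lay 0.21 above the highest oxidase difference. That gap did not hold when clusters shared with other genes were kept, since the cluster listing Plod3 differed by 0.07 and the one listing Loxl2 by 0.13.

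Plod1 encodes the lysyl hydroxylase that acts mainly on lysines within the triple helix. It was at 8.001 in wild type and at 8.69 in the knockout, a difference of 0.69, or 1.61-fold. Plod2 encodes the lysyl hydroxylase of the telopeptides, the short chain ends whose hydroxylated lysines give the stable cross-links found in bone, cartilage and scar tissue. It was at 9.21 in wild type and at 9.84 in the knockout, a difference of 0.62, or 1.54-fold. Both differences exceeded those of all other measured members. Plod3 encodes an enzyme that also attaches sugars to hydroxylysine, and the cluster that lists it together with Mir702 was at 8.81 and 8.87.

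The 3 alpha subunits of prolyl 4-hydroxylase were all higher in the knockout array by similar amounts. P4ha1, the main form in most cells, was at 9.47 in wild type and at 9.75 in the knockout (0.28, 1.22-fold). P4ha2, a form prominent in cartilage and bone cells, was at 7.98 and 8.30 (0.32, or 25.1% higher). P4ha3, the third isoform, was at 8.27 and 8.61 (0.34, 1.27-fold). Their differences spanned less than 0.1 on the log2 scale, and all were smaller than those of Plod1 and Plod2.

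Lox, the founding lysyl oxidase, was at 12.04 in wild type and at 12.12 in the knockout (0.08, 1.06-fold). Loxl1, which acts in elastic fibre formation, was at 10.88 on both arrays (0.01). Loxl3, known for its part in palate and spine development, was at 8.72 and 8.77 (0.05, 1.04-fold). The 3 pairs of values lay nearly on top of each other. The cluster that lists Loxl2, an oxidase of basement membrane and fibrotic collagen, together with other genes was at 9.78 and 9.91.

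**Figure D1:**
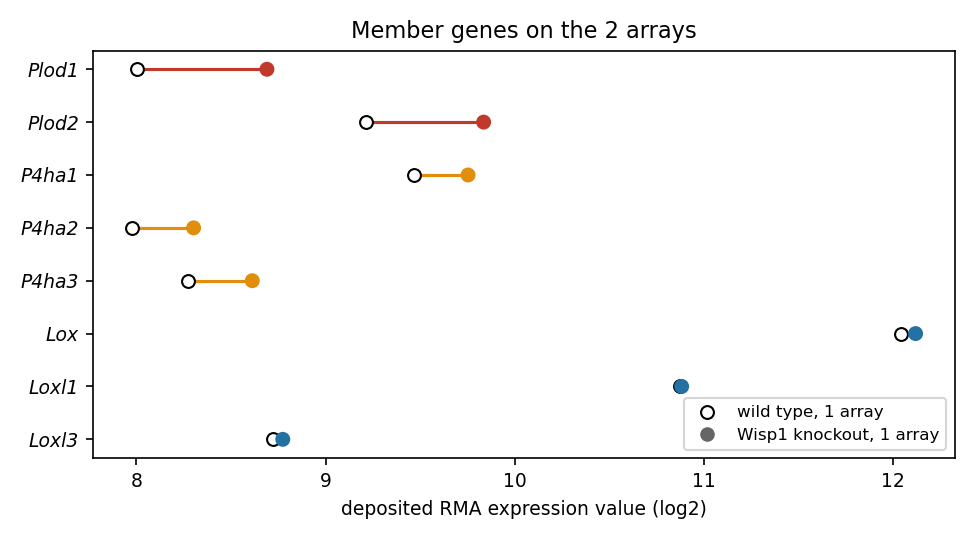
Deposited RMA expression value (log2, horizontal axis) of the 8 measured members in the wild-type array (open circles) and the Wisp1 knockout array (filled circles), 1 array each, with lysyl hydroxylases in red, prolyl 4-hydroxylase alpha subunits in orange and lysyl oxidases in blue. The 5 hydroxylase genes are shifted to the right in the knockout and the 3 oxidase genes are almost in place; positions of different genes are not comparable because their probes differ.

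The members were read against the 15072 named genes with a mean level of at least 4.65, the median over named genes, which all 8 members passed. All 8 members were higher in the knockout array, where 56.9% of those genes were, and none was lower, where 39.9% were; Loxl1 was lower under quantile normalization and under loess centring on mean level. A level at least 25% higher (0.32 on the log2 scale) was seen in 4 of the 8, namely Plod1, Plod2, P4ha2 and P4ha3, where 3.89% of those genes reached it. None of the members was lower by the same log2 size, that is by 20% or more, where 2.64% of the genes were. P4ha2 was just past that size (0.3231 against 0.3219) and P4ha1 just short of it. Under quantile normalization and loess centring, P4ha2 (0.28 in both) and P4ha3 (0.31 and 0.30) were short of it as well, which left 2 members past it. Under those scalings 2.97% and 3.04% of the genes at or above the median level reached it. A smaller size of 1.2-fold was reached by 5 members and by 6.4% of the genes as higher, and a larger one of 1.5-fold by 2 members and by 0.717% of the genes. No member reached a 2-fold difference, which 0.0663% of the genes reached as higher and 0.0995% as lower. The median difference was 0.30 over the 8 members and 0.03 over the 15072 genes. With shared clusters kept, the median over all 10 members was 0.21.

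The place of each member among those genes restates its difference as a rank, and the shared clusters listing Plod3 and Loxl2 were not ranked. Plod1 ranked 58th and Plod2 87th from the highest difference, P4ha3 500th, P4ha2 581st and P4ha1 789th. Loxl3, Lox and Loxl1 lay in the middle, at ranks 6541, 5293 and 8377. Among the 2909 named genes at least as high as the lowest member (a mean of 8.14), the central 95% of differences ran from -0.36 to 0.40. Plod1 and Plod2 lay above that range and the other 6 members inside it. In that set 4.74% of genes were at least 25% higher.

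**Figure D2:**
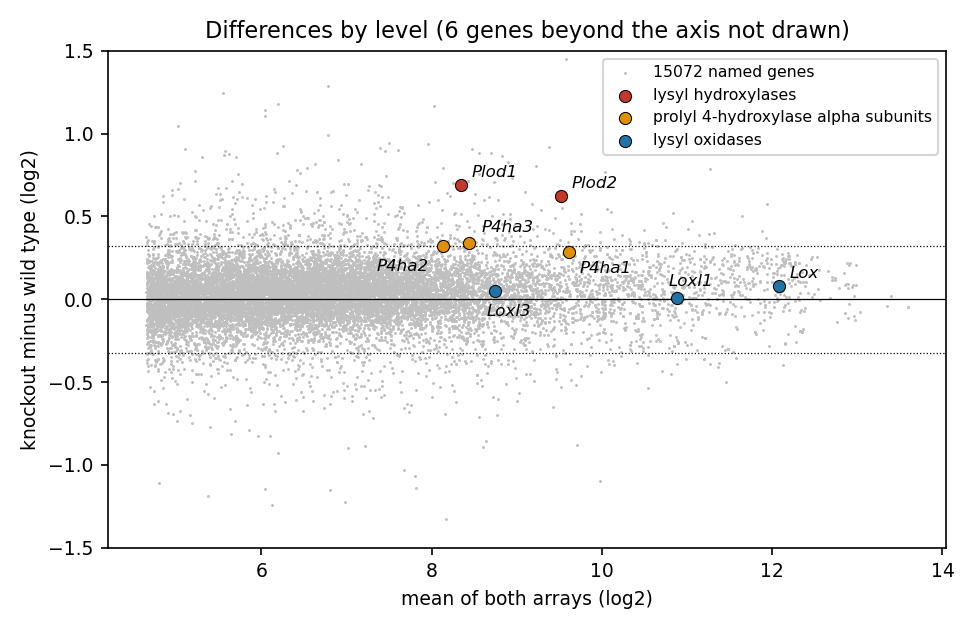
Difference between knockout and wild type (log2, vertical axis) against the mean of both arrays (log2, horizontal axis) for the 15072 named genes of the comparison (grey), with the 8 members coloured by family and dotted lines at 25% higher and 20% lower; 6 genes beyond the axis are not drawn. Plod1 (0.69) and Plod2 (0.62) stand at the upper edge of genes of their level, the P4ha genes (0.28 to 0.34) near the upper dotted line, and Lox, Loxl1 and Loxl3 close to 0.

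RefSeq promoter sequences (GRCm38.p6) were matched for 5 members, Plod1, P4ha1, P4ha2 and P4ha3, all higher in the knockout array, and Plod3. They are shown because several members are known targets of the low-oxygen response, described below. The entries not matched were Plod2, Lox, Loxl1, Loxl2 and Loxl3. Each line gives the 250 bases before the transcription start, 5′ to 3′ on the gene's strand. Capitals mark the core of the low-oxygen response element, found as ACGTG or, with a different first base, as GCGTG; both strands were searched, so a capital run may be the reverse complement of either. The windows are chr4:147936777-147937026 on the minus strand for Plod1 and, on the plus strand, chr5:136986769-136987018 for Plod3, chr10:59323046-59323295 for P4ha1, chr11:54100674-54100923 for P4ha2 and chr7:100285270-100285519 for P4ha3.
Plod1: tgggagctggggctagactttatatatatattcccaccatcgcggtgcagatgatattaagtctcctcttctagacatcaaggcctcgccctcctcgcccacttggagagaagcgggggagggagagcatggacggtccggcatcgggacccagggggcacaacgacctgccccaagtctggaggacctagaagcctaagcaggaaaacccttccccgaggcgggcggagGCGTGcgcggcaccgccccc
Plod3: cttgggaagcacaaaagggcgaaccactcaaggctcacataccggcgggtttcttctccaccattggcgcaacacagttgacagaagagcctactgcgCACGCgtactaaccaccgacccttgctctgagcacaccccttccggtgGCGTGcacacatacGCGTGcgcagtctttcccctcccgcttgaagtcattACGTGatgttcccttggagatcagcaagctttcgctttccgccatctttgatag
P4ha1: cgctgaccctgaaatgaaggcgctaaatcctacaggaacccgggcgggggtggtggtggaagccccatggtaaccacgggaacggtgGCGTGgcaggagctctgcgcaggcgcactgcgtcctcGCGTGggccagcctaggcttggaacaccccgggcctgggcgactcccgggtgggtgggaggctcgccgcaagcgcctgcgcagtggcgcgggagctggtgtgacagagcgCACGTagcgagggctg
P4ha2: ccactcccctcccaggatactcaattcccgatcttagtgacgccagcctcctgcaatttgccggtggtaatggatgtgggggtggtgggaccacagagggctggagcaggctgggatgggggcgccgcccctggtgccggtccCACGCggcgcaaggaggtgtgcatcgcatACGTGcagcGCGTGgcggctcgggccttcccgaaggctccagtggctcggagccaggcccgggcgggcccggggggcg
P4ha3: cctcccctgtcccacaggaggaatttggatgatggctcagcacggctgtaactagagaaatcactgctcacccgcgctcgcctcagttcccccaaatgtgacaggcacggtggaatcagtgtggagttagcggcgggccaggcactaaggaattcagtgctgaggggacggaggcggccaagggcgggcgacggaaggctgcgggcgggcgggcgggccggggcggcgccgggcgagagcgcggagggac

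The core was found 3 times in the P4ha1 window and 3 times in that of P4ha2, once in each gene on the other strand. The Plod1 window held 1 match, GCGTG, from 20 to 16 bases before the start. The P4ha3 window held 0 matches, and P4ha3 differed by 0.34. The Plod3 window held 4, more than any of the other windows shown, and its shared cluster differed by 0.07. With 5 windows shown, and none for Plod2 or a lysyl oxidase, any relation of matches to differences was not tested. Of all 32851 RefSeq promoter windows of this length 38.6% held at least 1 match. The GC box GGGCGG, searched on both strands, was found in 32.7% of all windows. It was found 5 times in P4ha3, 2 times each in Plod1 and P4ha2, 1 time in P4ha1 and 0 times in Plod3. Overlapping matches were each counted. In P4ha3 those at 48 to 43, 44 to 39 and 40 to 35 bases before the start each share bases with the next, so the 5 are not separate boxes. No GC box match overlapped a core match in these windows. All 5 windows shown held more G and C (55.6% to 70.0%) than the median over all windows (52.4%). The shares over all windows are therefore not matched for base content. A match is a run of letters and no evidence of binding.

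The lists of related genes below count all measured genes, dim ones included, and each is read against the 15072 genes, of which 56.9% were higher and 39.9% lower, 3.89% at least 25% higher and 2.64% at least 20% lower. The partners that work with the hydroxylases lay near those shares. Of 14 such genes 13 were measured, 8 were higher and 5 lower, and none was 25% higher or 20% lower (median 0.08, against 0.03 over the 15072 genes); 11 of the 13 passed the level of 4.65. Serpinh1, the collagen chaperone HSP47, was highest (8.45 to 8.66, 0.21), and P3h2, a prolyl 3-hydroxylase, lowest (4.65 to 4.37, -0.28). The mean of P3h2 lay below the level of 4.65. P4hb, the shared beta subunit of prolyl 4-hydroxylase, went from 11.07 to 11.24 (0.17). The differences of P4ha1, P4ha2 and P4ha3 exceeded that of P4hb by 0.11, 0.15 and 0.17. P3h1, Crtap and Ppib, which form the prolyl 3-hydroxylase complex, were higher by 0.16, 0.14 and 0.14. Colgalt1, which adds galactose to hydroxylysine, was higher by 0.14. Besides P3h2, the lower genes were P3h4 (-0.12), Tmem38b (-0.11), Colgalt2 (-0.10, with a mean below 4.65) and Slc23a2 (-0.06).

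Partners of cross-linking were more varied. Of 16 genes 15 were measured, 11 were higher and 4 lower (median 0.10), with 4 at least 25% higher (3.89% of the 15072 genes) and 1 at least 20% lower (2.64%); 14 of the 15 passed the level of 4.65. Lum (4.79 to 5.39, 0.60) and Fmod (9.05 to 9.43, 0.38) encode small proteoglycans that bind collagen fibrils, and fibromodulin also binds lysyl oxidase. Postn, a matricellular protein that helps to activate lysyl oxidase, went from 11.65 to 12.23 (0.57). Tll1, one of the tolloid proteases that can process lysyl oxidase precursors, was at 5.97 in wild type and at 4.78 in the knockout (-1.19), while Bmp1, the main protease of that kind, was higher by 0.20. Loxl4, the remaining lysyl oxidase gene, differed by -0.03 (6.70 to 6.67). Atp7a, which loads copper onto lysyl oxidases, differed by 0.04 and the copper chaperone gene Atox1 by -0.18.

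Most substrate genes were higher in the knockout array. Of 12 fibrillar collagen and elastin genes 10 were higher and 2 lower (median 0.30), and 6 were at least 25% higher, where 56.9% of the 15072 genes were higher and 3.89% at least 25% higher. All 12 passed the level of 4.65. Col1a2 (10.57 to 11.10, 0.52), Col1a1 (11.40 to 11.90, 0.50), Col11a1 (6.82 to 7.28, 0.46) and Col3a1 (10.80 to 11.22, 0.43) had the largest differences, and Eln, the elastin gene, was at -0.09. Plod1 and Plod2 exceeded the difference of Col1a1 by 0.19 and 0.12. The differences of P4ha1, P4ha2 and P4ha3 were smaller than that of Col1a1 (-0.22, -0.18 and -0.16 relative to it), and those of Lox, Loxl1 and Loxl3 smaller still (-0.42, -0.50 and -0.45).

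**Figure D3:**
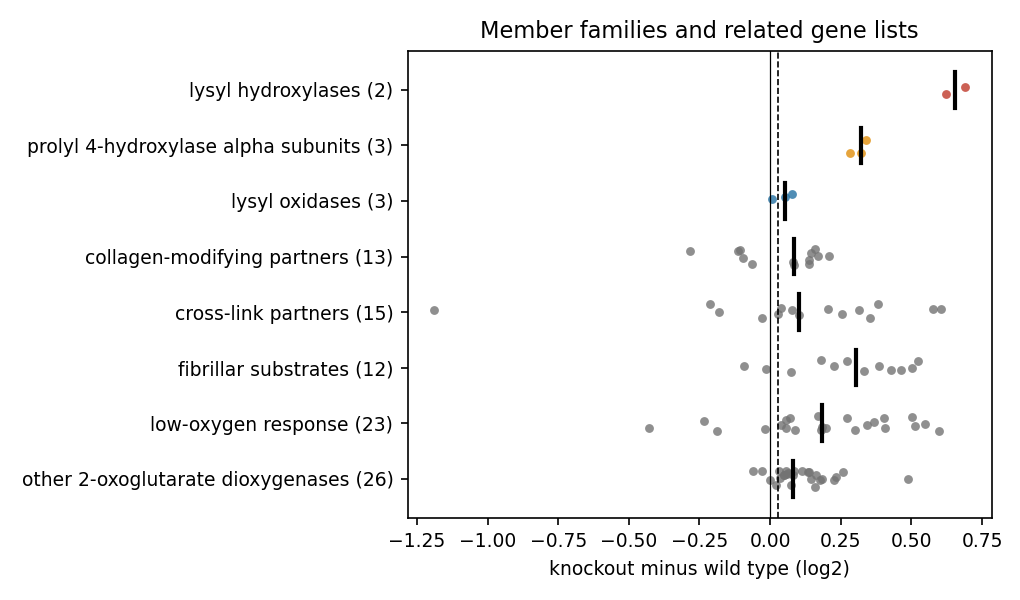
Difference between knockout and wild type (log2, horizontal axis) of each measured gene (points) in the member families and in the related lists, with the number of genes in brackets, the median of each group as a black bar and the median of the 15072 genes (0.03) as a dashed line. The lysyl hydroxylases (0.62 and 0.69) lie right of all genes of the collagen-modifying partner list, whose median is 0.08, and the lysyl oxidases lie near 0.

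P4ha1, P4ha2, Plod1, Plod2 and Lox are known to be induced when oxygen is low, and other genes of that response were also examined. Of 24 genes 23 were measured, 19 were higher and 4 lower (median 0.18), with 8 at least 25% higher and 1 at least 20% lower. Over the 15072 genes those shares were 56.9% higher, 39.9% lower, 3.89% at least 25% higher and 2.64% at least 20% lower, and 21 of the 23 passed the level of 4.65. Bnip3, a mitophagy receptor, went from 7.78 to 8.38 (0.60), and Egln3 and Egln1, the prolyl hydroxylases that act on the HIF subunits in place of collagen, from 6.18 to 6.73 (0.55) and from 8.58 to 9.09 (0.51). Pdk1, a kinase that restrains pyruvate oxidation, went from 6.24 to 6.75 (0.50). Ndrg1 was the lowest gene of this low-oxygen list (-0.43), and Adm, another gene of the response, was at -0.19. A separate list held other dioxygenases that use the same cofactors on other substrates, without those counted in the low-oxygen list. Those counted there were mixed: Egln1 and Egln3 exceeded all P4ha genes, while Kdm3a (0.06), Egln2 (-0.02) and Hif1an (-0.23) did not. In the separate list 23 of 26 measured genes were higher and 2 lower, where 56.9% and 39.9% of the 15072 genes were. The median was 0.08, and 24 of the 26 passed the level of 4.65. Phyh, which acts on branched fatty acids, was the only gene of this list at least 25% higher (6.79 to 7.27, 0.49). That 1 of 26 lay near the share of 3.89% over the 15072 genes. Kdm6b, a histone demethylase, followed at 0.26. The part of oxygen or of any cofactor in the members' differences was not tested.

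Cell identity was checked with marker lists, where the shares over the 15072 genes were 56.9% higher and 39.9% lower. Of the 8 measured stromal markers 7 passed the level of 4.65, and 6 were higher, 1 lower and 1 equal (list mean 7.16 and 7.28). The largest differences were in Lum (0.60) and Dcn (0.32). Of markers chosen after their values were seen, Thy1 (10.34 and 10.43) and Pdgfrb (10.38 and 10.49) were slightly higher, and Eng (9.38 and 9.17, -0.21) was the lower one. The remaining stromal markers were dimmer: Cd34 was at 5.43 and 5.51, Pi16 at 5.63 on both arrays and Dpp4 at 2.79 on both. Pdgfra and Ly6a, also listed, were not measured. Pericyte and smooth muscle markers were lower in 5 of 7 genes, and 5 of the 7 reached the level of 4.65. Their list mean was 7.24 on the wild-type array and 7.00 on the other. Mcam (-0.69), Myh11 (-0.51) and Cspg4 (-0.37) led the lower ones, followed by Notch3 (-0.31). Acta2, the brightest of the 7, was at 12.83 and 12.70 (-0.13). Abcc9 (0.22) and Rgs5 (0.08), both with means below 4.65, were higher. Macrophage markers were higher in 6 of 8 genes, with a list mean of 4.47 and 4.89, led by Lyz2 (6.14 to 7.43, 1.29), Fcer1g (0.90), Cd68 (0.58) and Tyrobp (0.51), while only 4 of the 8 reached the level of 4.65. The defining macrophage genes Adgre1 (3.33 and 3.25) and Csf1r (4.61 and 4.62), named after their values were seen, lay below that level on both arrays. Adipocyte markers were lower in 4 of 7 genes (list mean 4.81 and 4.53), and 3 of the 7 reached that level. Retn (4.90 to 3.81, -1.08) and Adipoq (4.50 to 3.86, -0.64) had the largest differences, with means below it. Endothelial markers were split 3 to 3 (4.33 and 4.46), and 2 of the 6 reached that level. Cdh5, with a mean below it, was at 0.80 (3.81 to 4.62), and Tek at -0.14. Lymphocyte markers (4 of 6 lower, 3.56 and 3.55, Cd79a 0.28, Ms4a1 -0.25) and epithelial markers (5 of 6 lower, 4.37 and 4.27, Krt18 -0.35, Krt5 -0.11) completed the check. The level of 4.65 was reached by 0 of the 6 lymphocyte markers and 2 of the 6 epithelial ones. In bulk RNA, more cells of a type and more RNA per cell cannot be told apart, and the part of cell makeup in the members' differences was not tested.

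The scaling of the arrays moved the members little. Over the deposited values, median centring, quantile normalization and loess centring, Plod1 ranged from 0.65 to 0.70, Plod2 from 0.58 to 0.64, P4ha1 from 0.25 to 0.30, P4ha2 from 0.28 to 0.34 and P4ha3 from 0.30 to 0.35. Lox ranged from 0.01 to 0.09 and Loxl3 from 0.01 to 0.07. The sign of Loxl1 flipped, from 0.01 as deposited to below 0 under quantile normalization and -0.04 under loess centring. The median of the hydroxylases exceeded that of the oxidases by 0.29 to 0.30 under these 4 scalings. Median centring could not change that gap, since it shifts every gene alike.

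**Figure D4:**
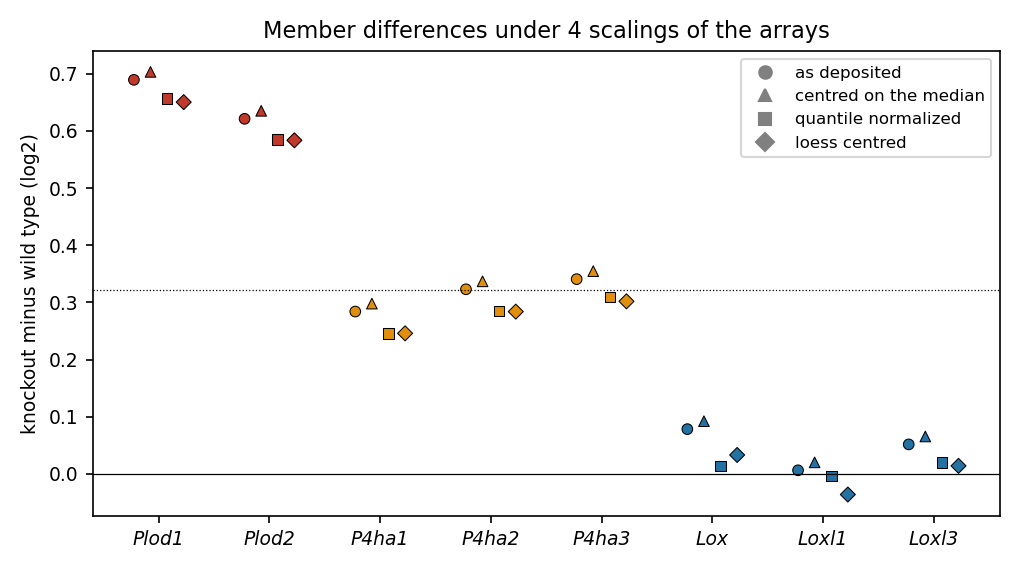
Difference between knockout and wild type (log2, vertical axis) of each member under 4 scalings of the arrays (marker shape), coloured by family, with a dotted line at 25% higher. The 5 hydroxylase genes stay between 0.25 and 0.70 and the 3 oxidase genes between -0.04 and 0.09 under all 4.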

How the data were processed

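Total RNA of 1 sample per genotype was measured on 1 Affymetrix array each after labelling with the GeneChip WT PLUS kit, per the labels. The authors deposited log2 values per transcript cluster, made by RMA in Partek per the submitters' processing notes; versions, the genome build and the arrays normalized together are not given in the sources used here. RMA makes arrays alike in distribution, so a shift shared by most genes cannot be seen. Of 65956 clusters 30604 had 1 symbol, 2146 several (left out) and 33206 none; 827 symbols were updated through Entrez IDs with RefSeq GRCm38.p6. The cluster with the highest mean was kept per gene. No further normalization, pseudocount or test was applied, and the number of arrays limits the precision.

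The members, lists (137 of 145 entries matched), motifs and thresholds were chosen with earlier results of these data known. Named genes were all members, Wisp1 and, per list, those 25% higher or 20% lower up to the 4 largest and at least the 2 largest; others named beside their list, such as P4hb, P3h1, Crtap, Ppib, Colgalt1, Bmp1, Loxl4, Atp7a, Atox1, Eln, Ndrg1, Adm, Thy1, Pdgfrb and Eng, were chosen after their values were seen. Alternatives were other level filters, median centring, quantile normalization, loess (span 0.3), the mean over clusters, clusters with several symbols, other folds and list means. The procedure was also run on simulated data, with shifts larger than the difference of any member. That run therefore gives no information on differences of the members' size. Software was Python 3.11.15 with statsmodels 0.14.6, pandas 2.3.3, matplotlib 3.10.9 and numpy 2.4.6.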

Additional observations from a re-analysis of the deposited data

How the results depend on the processing

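Of 174 values recomputed under an alternative, 163 kept their sign and moved by less than 0.1 on the log2 scale, or for a count by at most 1.5 times. Part of this was fixed in advance, so the count is no measure of robustness. Each of the 8 measured members had 1 cluster, so the cluster alternatives returned its difference unchanged. Keeping shared clusters added Plod3 and Loxl2, and the members' median was then 0.21 in place of 0.30, a move counted among the 163. Of those 10 members 4 were at least 25% higher, where 3.78% of genes were. The mean of the lysyl hydroxylases was then 0.46 in place of 0.66. Median centring shifts every difference by the same small amount. The members at least 25% higher numbered 4 as deposited, 2 under quantile normalization, 2 under loess centring, 2 at a 1.5-fold size and 5 at a 1.2-fold size. Under quantile normalization and under loess centring 1 member was lower, Loxl1, which turned from 0.01 to -0.0039 and -0.036. The hydroxylases had a median of 0.34 and a mean of 0.45. Moved by the mean in place of the median were also the adipocyte (-0.29), endothelial (0.13) and macrophage (0.42) markers. The share of genes at least 25% higher ran from 2.72% over all named genes to 4.74% over genes at or above the lowest member level, the latter chosen after seeing the data. No paired analysis was possible because each group holds 1 array. No replicate could be left out for the same reason, and differences of the size of those of the P4ha genes were not set against any replicate error.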
